A study of Mus musculus with 192 samples.

Results

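Glycolysis and hypoxia genes, a set of 32 genes that carry glucose from uptake to lactate or respond to low oxygen, were followed in single R1 mouse embryonic stem (ES) cells. The genes were chosen by name, with earlier results of these data known, and all 32 were found among the 24264 gene rows of the molecule table. R1 is an established mouse ES cell line. All cells came from 1 culture on irradiated mouse embryonic fibroblast feeders, which were removed by settling. Dying cells were taken out with annexin V beads, and the rest were stored frozen in medium with DMSO. After thawing, up to 1 cell was caught in each of 96 chambers (wells) of a microfluidic chip and lysed with a mix of spike-in RNAs, and its cDNA was amplified by 21 cycles of PCR. The 96 libraries as made and the 96 libraries after 9 further cycles shared their barcodes, and each column of the table stood for both forms, so the forms were not compared. No genotype or treatment differed between wells. Because 1 culture is 1 sample, wells were not replicates. No test over wells was made, and every SD below is a spread between wells.

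Glycolysis splits glucose into pyruvate in the cytosol. Transporters bring glucose in, hexokinase traps it, phosphofructokinase commits it, aldolase cuts it into triose phosphates, and the later enzymes recover ATP. Lactate dehydrogenase turns pyruvate into lactate, which leaves through monocarboxylate transporters, while the pyruvate dehydrogenase complex feeds it to mitochondria and is switched off by pyruvate dehydrogenase kinases. Hypoxia-inducible factor 1 alpha, encoded by Hif1a, is destroyed after hydroxylation when oxygen is present and otherwise activates many of these genes. Pluripotent stem cells are known for a high glycolytic rate.

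Wells fell into separate ranges of RNA content with none between. The 45 low-RNA wells held 8774 to 35543 gene molecules with a median of 22234, and the 51 RNA-rich wells held 51390 to 573648 with a median of 98750. Mitochondrial genes took 29.3% ± 5.22 (SD, n = 45 wells) of gene molecules in low-RNA wells and 10.7% ± 2.70 (SD, n = 51 wells) in RNA-rich wells. Their part in the differences below was not tested. Folds marked nuclear use a denominator that leaves out mitochondrial genes and the ribosomal RNA row Rn45s. Less RNA per cell and a chamber without an intact cell cannot be told apart from these counts. Wells C03 and H03 held 36465 and 55740 spike-in molecules, against a median of 7992 in RNA-rich wells. Well H12 held 926 spike-in molecules and 7.58% mitochondrial molecules, and its mitochondrial share lay within the range of RNA-rich wells. All 13 ES cell markers were detected in both classes, and Pou5f1, the ES cell transcription factor Oct4, was present in 39 of 45 low-RNA and 51 of 51 RNA-rich wells. Markers of feeder fibroblasts summed to a median of 4.39 molecules per 10000 in low-RNA wells and 3.70 in RNA-rich wells, with 10 and 13 of 15 detected. Their highest sum was 120 in well E02, which also held the highest level of Col1a1, a fibroblast collagen, at 2.57.

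The start regions of 4 members are shown because hypoxia-inducible factor binds a short core, written ACGTG or GCGTG, and because these 4 genes stand at the entry, middle and end of the pathway. Each line gives the 250 bases before the annotated start, 5′ to 3′ on the gene's strand, from RefSeq on GRCm38.p6, with every match of either core on either strand in capitals. The windows are chr7:46845554-46845803 on the plus strand for Ldha, chrX:106186850-106187099 on the plus strand for Pgk1, chr6:82774455-82774704 on the minus strand for Hk2 and chr6:125165774-125166023 on the minus strand for Gapdh, and none of them overlaps a GENCODE exon. The Ldha and Gapdh windows lie inside the GENCODE genes (chr7:46841475-46855627 and chr6:125161715-125166467), downstream of the GENCODE starts.
Ldha: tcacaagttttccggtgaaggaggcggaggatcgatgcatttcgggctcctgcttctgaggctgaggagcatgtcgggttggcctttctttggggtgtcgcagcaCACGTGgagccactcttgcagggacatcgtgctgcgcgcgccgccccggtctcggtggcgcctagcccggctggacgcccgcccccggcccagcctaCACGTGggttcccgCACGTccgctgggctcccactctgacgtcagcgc
Pgk1: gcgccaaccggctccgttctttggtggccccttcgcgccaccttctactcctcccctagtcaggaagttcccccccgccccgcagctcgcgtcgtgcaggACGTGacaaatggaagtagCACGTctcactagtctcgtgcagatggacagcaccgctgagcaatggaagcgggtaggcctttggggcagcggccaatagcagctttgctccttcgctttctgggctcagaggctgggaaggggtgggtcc
Hk2: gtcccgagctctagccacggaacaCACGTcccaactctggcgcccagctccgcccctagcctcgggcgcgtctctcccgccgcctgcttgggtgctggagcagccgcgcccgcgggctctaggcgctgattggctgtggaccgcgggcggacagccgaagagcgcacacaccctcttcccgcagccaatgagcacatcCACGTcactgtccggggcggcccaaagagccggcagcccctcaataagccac
Gapdh: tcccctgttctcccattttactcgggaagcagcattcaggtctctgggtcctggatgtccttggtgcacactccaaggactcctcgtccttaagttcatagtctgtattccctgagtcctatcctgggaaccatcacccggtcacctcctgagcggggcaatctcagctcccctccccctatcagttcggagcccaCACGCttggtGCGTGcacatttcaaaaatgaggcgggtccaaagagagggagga
The printed Ldha window held 5 matches of ACGTG, 4 of them in 2 copies of CACGTG, which reads as ACGTG on both strands and so counts as 2 matches. Another RefSeq window of Ldha, chr7:46846832-46847081, is not printed and held 1 match, of GCGTG. Pgk1 and Hk2 each held 2 matches of ACGTG, and Gapdh held 2 of GCGTG. Windows were found for 30 of the 32 members, not for Slc2a3 and Ero1l, and 28 of the 30 (93.3%) held a core in at least 1 window. A core was present for 65.9% of the 5169 genes with a mean level of at least 0.1 and a window, and for 41.5% of all 27025 RefSeq genes with one. Counted by window, 36 of 44 member windows (81.8%) held a core, against 59.4% of the 6590 windows of genes at that level. A match describes these letters and shows no binding.

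In RNA-rich wells the members together made up 1.19% of all gene molecules, and in low-RNA wells 0.643%. Levels below are molecules of a gene per 10000 gene molecules of the well. A molecule counted once whatever its transcript length, so levels of different genes are not divided by length. The summed level of the 32 members was lowest at 78 in well A08, had a median of 120 and was highest at 172 in well E07 among RNA-rich wells. In low-RNA wells it ran from 52.6 through a median of 63.9 to 121 in H12. The next highest low-RNA well was D12 at 83.2, and 49 of 51 RNA-rich wells lay above it. The mean sum was 118 ± 20.1 (SD, n = 51 wells) in RNA-rich and 64.9 ± 10.9 (SD, n = 45 wells) in low-RNA wells, a ratio of 1.83. The ratio was 1.36 with the nuclear denominator (all genes but mitochondrial genes and Rn45s). After division by spike-in molecules it was 5.48, where the median fold of all genes tested was 3.93. The classes are set by gene molecules, so a rise per spike-in is partly given by that rule. The value was not computed without H12, the well with the fewest spike-in molecules. A few genes carried the sum: Gapdh alone gave 38.01% of it in RNA-rich wells, the 5 highest members (Gapdh, Pkm, Aldoa, Ldha and Pgam1) gave 71.9%, and the 12 highest gave 93.7%.

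**Figure D1:**
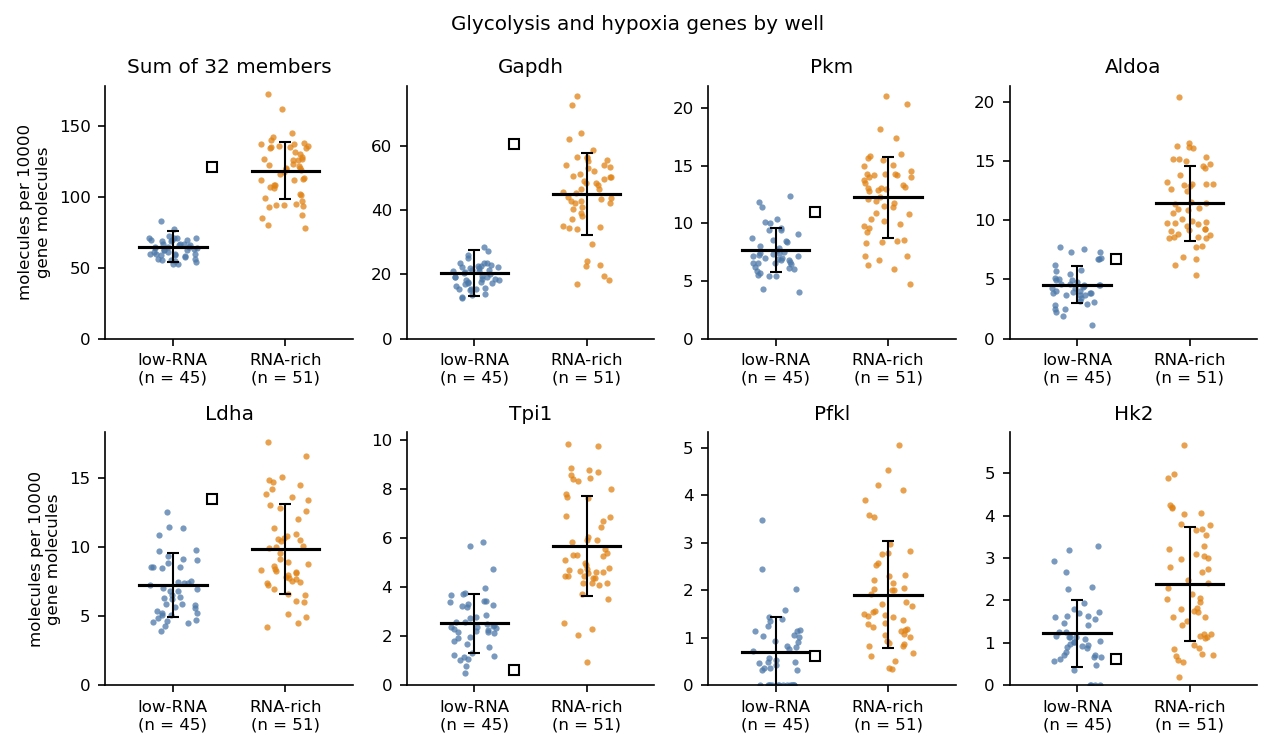
Levels (y axis, molecules per 10000 gene molecules) of the 32 members summed and of 7 members in each of 45 low-RNA wells (blue) and 51 RNA-rich wells (orange); bars are the mean ± SD between wells and the open square is well H12. For Aldoa, 47 of 51 RNA-rich wells lay above the highest low-RNA well, while for Ldha only 9 did.

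Of the 32 members, 27 had a mean level of at least 0.1 over all wells and entered the comparison of classes. By the ratio of mean levels, 17 of the 27 were at least 1.5-fold higher in RNA-rich wells and 1 was at least 1.5-fold lower, while of all 7210 genes tested 34.8% were higher and 11.2% lower. The median fold was 1.58 over the 27 members and 1.28 over all genes. With the nuclear denominator 6 members were higher, where 11.5% of all genes were, and 3 were lower, where 22.8% of all genes were. The median was then 1.18 for members and 0.960 for all genes. After division by spike-ins all 27 were higher, where 6863 of all 7210 genes were, so this count was near the background. The median was then 4.53 for members and 3.93 for all genes. In each of these 3 scalings 21 of the 27 members lay above the median of all genes. A change of denominator scales all genes of a well alike, so these are not 3 separate results. No member separated the classes completely. How many of all genes did so was not computed, so this says nothing particular about the members. The 5 members under the minimum were Hk1, Pfkfb3, Aldoc, Eno1 and Egln3, with 39, 91, 22, 68 and 38 molecules over all wells.

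**Figure D2:**
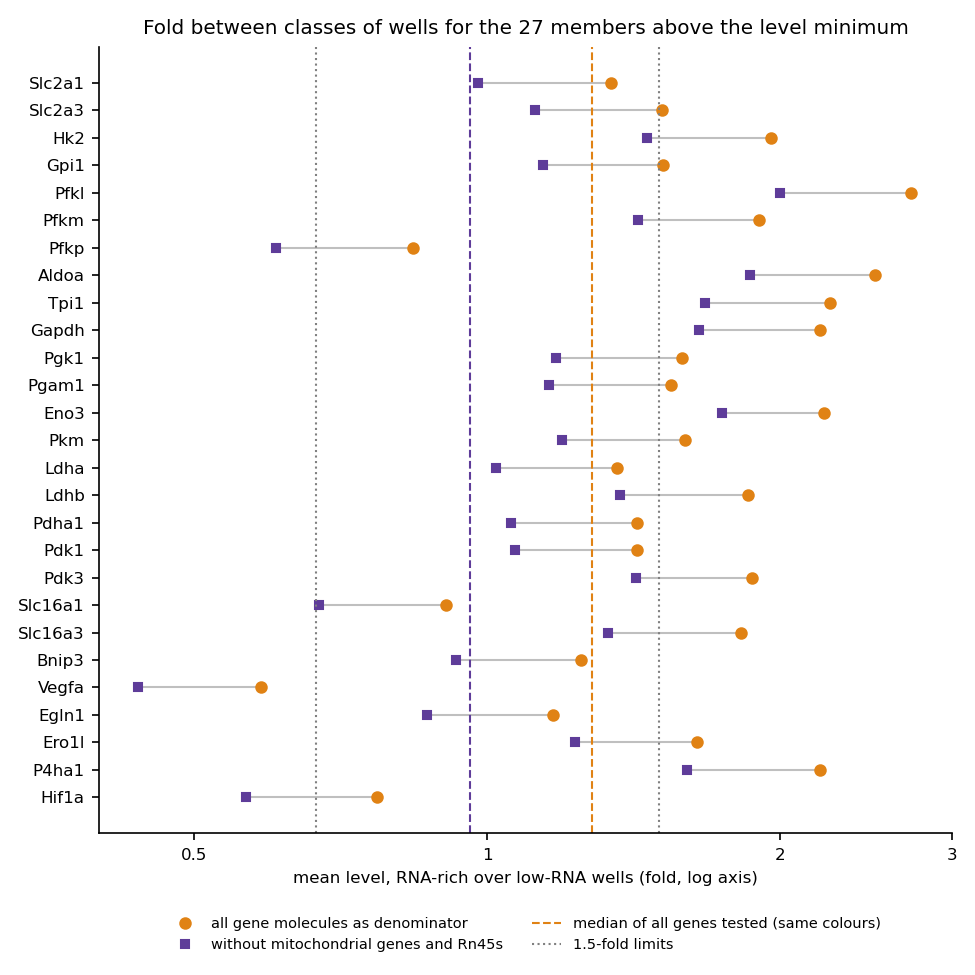
Ratio of mean levels in RNA-rich over low-RNA wells (x axis, fold, log scale) for the 27 members at a level of at least 0.1, with all gene molecules as denominator (circles) and without mitochondrial genes and Rn45s (squares); dashed lines are the medians of 7210 genes (1.28 and 0.960) and dotted lines the 1.5-fold limits. Pfkl, Aldoa, Tpi1, Gapdh, Eno3 and P4ha1 lay past 1.5-fold under both denominators.

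The 2 glucose transporters summed to 8.08 ± 5.77 (SD, n = 51 wells) in RNA-rich and 5.49 ± 2.69 (SD, n = 45 wells) in low-RNA wells, a fold of 1.47 (1.09 nuclear). Slc2a3, the high-affinity glucose transporter GLUT3, had levels of 1.27 to 22.5 with a median of 4.86 in RNA-rich wells and 0.565 to 15.5 with a median of 3.81 in low-RNA wells. The classes overlapped widely, and 4 RNA-rich wells lay above the highest low-RNA well, H01. Its fold of 1.51 rested on a few wells: without the wells high in keratins and E02 it was 1.16, leaving out any 1 of 17 wells took it under 1.5, and with the nuclear denominator it was 1.12. Slc2a1, the widespread transporter GLUT1, had a median of 1.48 in RNA-rich and 1.14 in low-RNA wells and a fold of 1.34 (0.978 nuclear). Slc2a3 supplied 78.2% (95% exact binomial interval 77.1 to 79.4, counting error only) of the molecules of both transporters in RNA-rich wells and 76.1% (72.4 to 79.6) in low-RNA wells. It exceeded Slc2a1 in 50 of 51 and 41 of 45 wells.

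Of the 5 roles, the enzymes that act on hexoses had the highest ratio of summed levels, of which Aldoa made up most, while Gpi1 and Pfkp had lower folds than the triose enzymes Tpi1 and Gapdh. The 9 members summed to 18.6 ± 4.75 (SD, n = 51 wells) in RNA-rich and 8.54 ± 2.39 (SD, n = 45 wells) in low-RNA wells, 2.17-fold higher, or 1.62-fold with the nuclear denominator, and 44 RNA-rich wells lay above the highest low-RNA well. Aldoa, the aldolase of most tissues, ranged from 5.38 to 20.4 with a median of 10.9 in RNA-rich wells and from 1.17 to 7.72 with a median of 4.43 in low-RNA wells. All 51 RNA-rich wells exceeded the low-RNA median and 47 exceeded its highest well. Its fold was 2.503 (1.86 nuclear), and it made up 99.7% of aldolase molecules in RNA-rich wells beside Aldoc.

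Pfkl, the liver-type subunit of phosphofructokinase, had the highest fold of the tested members at 2.72 (2.00 nuclear). It ranged from 0.328 to 5.06 with a median of 1.55 in RNA-rich wells and from 0 to 3.49 with a median of 0.526 in low-RNA wells. Among the 3 phosphofructokinase genes it gave 81.2% (78.97 to 83.2) of molecules in RNA-rich wells and 64.7% (55.2 to 73.3) in low-RNA wells. The platelet-type Pfkp did not share the rise, with a mean of 0.237 in RNA-rich and 0.283 in low-RNA wells, and it was 1.65-fold lower with the nuclear denominator. Pfkm, the muscle-type subunit, was 1.90-fold higher (1.43 nuclear) from 106 and 11 molecules. It was 1.03-fold after each well was thinned to 8000 gene molecules in a single random draw. Few molecules of so sparse a gene are left by thinning, so the thinned value does not decide whether the fold holds.

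Hk2, the inducible hexokinase, ranged from 0.184 in E02 to 5.68 with a median of 2.16 in RNA-rich wells and from 0 to 3.28 with a median of 1.09 in low-RNA wells, a fold of 1.96 (1.46 nuclear). It supplied 97.9% (97.0 to 98.6) of hexokinase molecules beside Hk1 in RNA-rich wells. Hk1, the form of most adult tissues, was seen in 14 of 51 RNA-rich and 6 of 45 low-RNA wells. Gpi1, glucose-6-phosphate isomerase, had medians of 1.85 and 1.31, and its fold of 1.51 (1.14 nuclear) fell under 1.5 when any 1 of 18 wells was left out. Pfkfb3, which makes the activator of phosphofructokinase, gave 82 molecules in 15 RNA-rich wells and 9 in 8 low-RNA wells.

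The enzymes of the triose phase made up 63.5% of the members' sum in RNA-rich wells. Gapdh, glyceraldehyde-3-phosphate dehydrogenase and a common reference gene, ranged from 17.0 to 75.4 with a median of 46.4 in RNA-rich wells and from 12.5 to 60.6 with a median of 19.5 in low-RNA wells. The value of 60.6 was that of H12, the next was 28.5, and 45 of 51 RNA-rich wells lay above the latter. Its fold was 2.20, 2.30 without H12 and 1.65 with the nuclear denominator. Tpi1, triose-phosphate isomerase, ranged from 0.926 to 9.85 with a median of 5.25 against 0.506 to 5.83 with a median of 2.39, a fold of 2.25 (1.67 nuclear). In H12 Tpi1 was at 0.612, so that well was high for Gapdh but not for Tpi1.

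Pkm, the pyruvate kinase of proliferating cells and muscle, ranged from 4.70 to 21.1 with a median of 12.9 in RNA-rich wells and from 4.01 to 12.3 with a median of 7.23 in low-RNA wells. Its fold was 1.598, or 1.19 with the nuclear denominator. Pgk1, phosphoglycerate kinase, had medians of 5.42 and 3.54 and a fold of 1.58 (1.18 nuclear), and Pgam1, phosphoglycerate mutase, medians of 6.16 and 4.07 and a fold of 1.55 (1.16 nuclear). Both are uncertain, since only 26.7% of Pgk1 molecules and 5.19% of Pgam1 molecules came from uniquely mapped reads. Eno3, the muscle enolase, was 2.22-fold higher (1.74 nuclear) from 84 molecules in RNA-rich and 6 in low-RNA wells.

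Enolase 1 is the main enolase of most cells. The row named Eno1 held 68 molecules, all in RNA-rich wells, and 0 of 1010740 gene molecules in low-RNA wells, which allows a level of up to 0.0297 there (3 counts over the class). By that floor its pooled level of 0.117 in RNA-rich wells was at least 3.93-fold higher. A row named Gm5506_loc2 starts at position 150237223 of chromosome 4 on the plus strand, inside the GENCODE gene Eno1 (GRCm38 chr4:150236721-150248879), and held 17116 molecules, none from uniquely mapped reads. The Eno1 row was 0.396% of the molecules of both. Gm5506_loc2 had a median of 26.2 (12.7 to 37.7) in RNA-rich wells and 16.2 (9.34 to 41.03) in low-RNA wells. With it added, the ratio of the summed level between classes was 1.76. Its level is that of reads shared with near-identical copies and cannot be assigned to a gene here.

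For the genes that decide the fate of pyruvate, the summed level of 7 members was 14.6 ± 4.14 (SD, n = 51 wells) in RNA-rich and 10.5 ± 2.93 (SD, n = 45 wells) in low-RNA wells, 1.39-fold higher and 1.04-fold with the nuclear denominator. Ldha, the lactate dehydrogenase subunit that favours lactate formation, ranged from 4.20 to 17.6 with a median of 9.15 against 3.94 to 13.5 with a median of 6.85. Its fold of 1.36 (1.02 nuclear) did not reach 1.5, and 9 RNA-rich wells lay above the highest low-RNA well. Ldhb, the subunit of oxidative tissues, was 1.85-fold higher (1.37 nuclear) with medians of 1.11 and 0.617. Ldha gave 88.6% (87.8 to 89.4) of lactate dehydrogenase molecules in RNA-rich and 90.4% (88.2 to 92.4) in low-RNA wells and exceeded Ldhb in every well of both classes.

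Pdha1, the catalytic subunit of pyruvate dehydrogenase, had medians of 1.65 and 1.25 and a fold of 1.42 (1.06 nuclear). Pdk1, a kinase that inhibits it, had a mean of 0.546 in RNA-rich and 0.383 in low-RNA wells, a fold of 1.43 (1.07 nuclear). Its relative Pdk3 was 1.87-fold higher (1.42 nuclear) from 82 and 7 molecules, and after thinning to 8000 gene molecules the fold was 0.882. The lactate exporter Slc16a3 (MCT4) was 1.82-fold higher (1.33 nuclear) from 176 and 16 molecules and 0.706-fold after thinning. Both thinned values come from the same single draw and from few molecules, and do not decide whether the folds hold. Slc16a1 (MCT1), which carries lactate and pyruvate both ways, had a mean of 0.533 in RNA-rich and 0.588 in low-RNA wells, a fold of 0.908 (0.672 nuclear), and gave 64.5% (60.1 to 68.7) and 78.4% (67.3 to 87.1) of the molecules of both carriers.

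The 7 hypoxia response members were sparse. Together they reached 2.02 ± 1.01 (SD, n = 51 wells) in RNA-rich and 1.88 ± 1.19 (SD, n = 45 wells) in low-RNA wells, a fold of 1.07 (0.796 nuclear), under the median of all genes in both scalings. P4ha1, a collagen prolyl hydroxylase subunit, was 2.20-fold higher (1.604 nuclear) from 127 molecules in 38 RNA-rich wells and 10 in 10 low-RNA wells. After the same thinning its fold was 7.06, again from few molecules. Ero1l, an oxidase of the endoplasmic reticulum, was 1.64-fold higher (1.23 nuclear) from 145 and 15 molecules. Vegfa, the growth factor for blood vessels, was 1.71-fold lower in RNA-rich wells (2.28-fold nuclear) from 74 and 28 molecules. Its call ended without well D09, which held 3.43, with a fold of 0.802, and without E02 the fold was 0.348. In RNA-rich wells the highest Vegfa value was 3.31 in E02, the well of the highest feeder marker sum, and the next was 0.568.

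Hif1a itself had a mean of 0.487 in RNA-rich and 0.632 in low-RNA wells and was 1.77-fold lower with the nuclear denominator. Bnip3, a mitochondrial protein of autophagy and cell death, had means of 0.600 and 0.480, a fold of 1.25 (0.930 nuclear). The prolyl hydroxylase gene Egln1, whose product marks hypoxia-inducible factor for destruction, had means of 0.249 and 0.213, a fold of 1.17 (0.868 nuclear). Its inducible relative Egln3 gave 34 and 4 molecules. After thinning, Hif1a was seen in 29.4% of RNA-rich and 33.3% of low-RNA wells, against 94.1% and 66.7% before it.

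Between RNA-rich wells, 8 members varied beyond the spike-in noise. For each gene the squared coefficient of variation (CV) was divided by that predicted at its mean by spike-ins in the same wells, and a gene was counted where its mean was at least 1 molecule and the ratio at least 2 with all wells and without its highest well. The count was 8 of 29 members with that mean, against 7.0% of 7768 genes, and the median ratio was 1.92 for members and 1.36 for all genes. The 7768 genes were not matched to the members in mean level, so a difference in abundance may enter this comparison. The 8 were the transporters Slc2a3 (ratio 10.9) and Slc2a1 (2.86), the enzymes Gapdh (5.35), Ldha (2.90), Pkm (2.60), Hk2 (2.498), Aldoa (2.31) and Tpi1 (2.21). Slc2a3 had a CV of 76.3% at a mean of 72.3 molecules, while Gapdh had a CV of 28.3% at 515 molecules. Without the keratin-high wells and E02, 5 of the 8 were still counted (Slc2a3, Hk2, Tpi1, Gapdh and Ldha). At a ratio of 3 only Slc2a3 and Gapdh were. The share of all genes counted was not computed for these settings, so no background stands beside these counts. Vegfa and Pfkfb3 had ratios of 4.95 and 4.32 that fell to 0.612 and 1.69 without the highest well.

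In low-RNA wells none of the 17 members with the mean of at least 1 molecule was counted, where 0.594% of 2695 genes were, and the median ratio was 0.439 for members and 0.473 for all genes. The highest ratio there was 1.57, for Gapdh, and it was 0.459 without well H12. Mean depth was 22461 gene molecules in these wells against 114447 in RNA-rich wells, and after thinning to 8000 no member was counted in RNA-rich wells either. The difference between these counts and that of depth cannot be told apart.

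**Figure D3:**
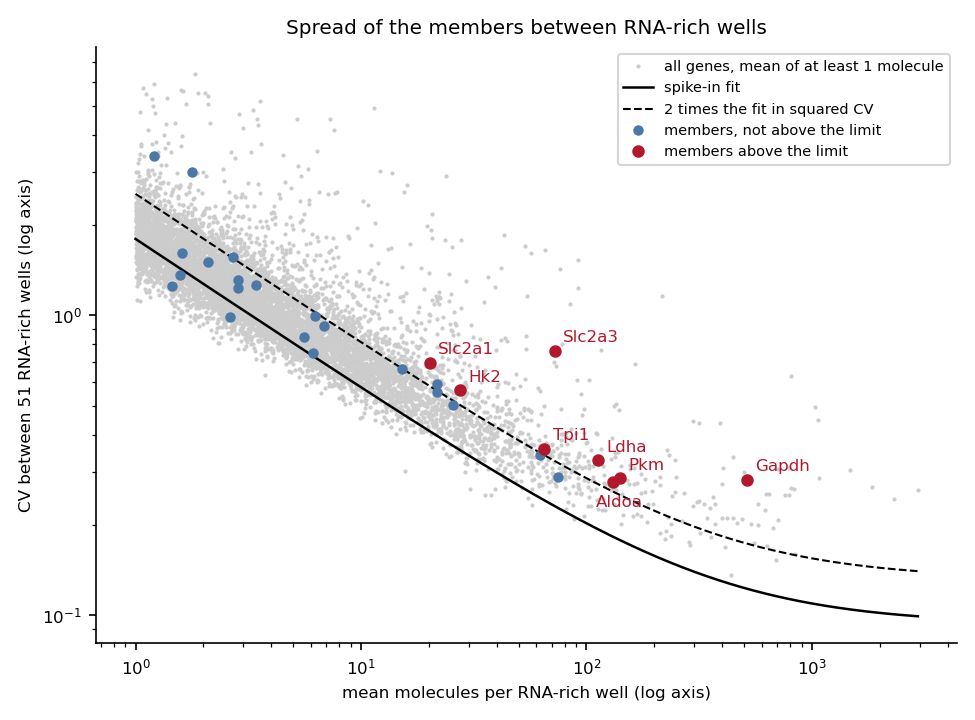
CV between 51 RNA-rich wells (y axis, log scale) against mean molecules per well (x axis, log scale) for all genes (grey) and the members (blue, and red where above the limit), with the spike-in fit (solid) and the line at 2 times the fit in squared CV (dashed). Slc2a3 stood farthest above the line among the 8 members named in red.

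Levels of different members moved together only weakly. Over 51 RNA-rich wells the median Spearman correlation was 0.0727 over 153 pairs of the 18 members with a mean of at least 5 molecules, and 0.0169 over all 4953378 pairs of 3148 genes. The points of each correlation shared the culture, the chip and the gene total of the well as denominator. The highest pairs were Pfkl with Pkm (0.585), Gapdh with Pkm (0.472), Hk2 with Pgk1 (0.456), Aldoa with Ldha (0.432) and Pgam1 with Ldha (0.403). Without the keratin-high wells and E02 these were 0.546, 0.467, 0.448, 0.475 and 0.323. For scale, the central 95% of all gene pairs ran from -0.291 to 0.323.

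The lowest pairs were Slc2a3 with Ldha (-0.351), Gpi1 with Pdha1 (-0.327) and Slc2a3 with Pdk1 (-0.314). Without the keratin-high wells and E02 the pairs with Slc2a3 shrank to -0.130 and -0.132, and that of Gpi1 with Pdha1 was -0.376. The correlation of Slc2a1 with Slc2a3 was 0.384 over all RNA-rich wells and 0.179 without those wells. In low-RNA wells 8 members gave 28 pairs with a median of -0.00428, against 0.0399 for all pairs. The summed level of the members correlated with the mitochondrial share at -0.364 in RNA-rich and -0.413 in low-RNA wells. With the nuclear denominator these were -0.219 and 0.144.

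**Figure D4:**
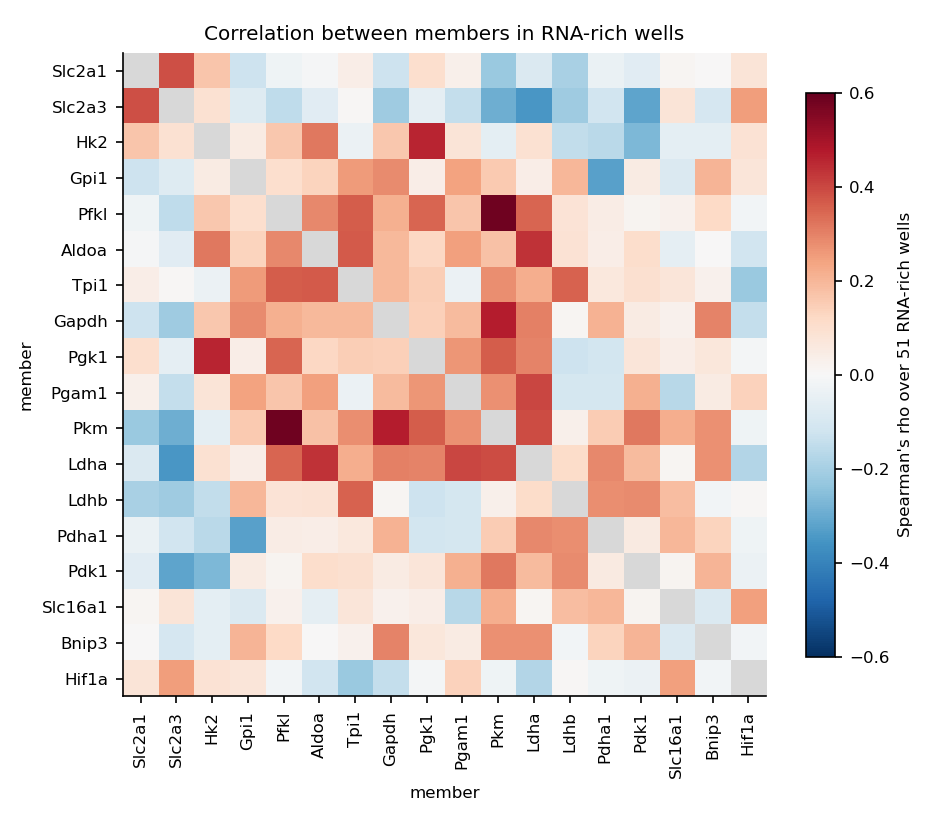
Spearman's rho over 51 RNA-rich wells between the 18 members with a mean of at least 5 molecules, in pathway order on both axes (red positive, blue negative, diagonal grey). Pfkl with Pkm (0.585) is the highest and Slc2a3 with Ldha (-0.351) the lowest of the 153 pairs.

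Within the RNA-rich wells, the highest levels of both glucose transporters were in wells rich in keratins, though not in all of them. A set of 9 wells had a summed level of Krt8 and Krt18, the keratins of simple epithelia, of at least 15, a limit chosen with earlier results of these data known. The nearest wells on each side of it were H05 at 20.5 and C03 and H03 at 10.8 each, and 41 RNA-rich wells lay below it, with E02 set apart. Well D02, with the next highest feeder marker sum of 57.6 and an ES cell marker sum of 23.5, stayed among the 41 and held their lowest Slc2a3 (1.27) and Pkm (4.70). The 9 wells had a median ES cell marker sum of 44.8 against 113 in the 41, and a median feeder marker sum of 8.70 against 3.35. For feeder markers 12 of 15 were detected in either set, and Thy1, Lum and Postn were at 0 in both. Their part in the differences was not tested.

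Slc2a3 in the 9 keratin-high wells stood at 2.64 in A06, 7.55 in H05, 7.59 in A11, 9.53 in H07, 12.04 in G10, 16.4 in G12, 20.5 in F12, 22.2 in D08 and 22.5 in A09. In the 41 others it ran from 1.27 through a median of 4.54 to 10.9. Thus 5 keratin-high wells lay above all others, and the 9 were otherwise mixed in with them. The means were 13.4 ± 7.26 (SD, n = 9 wells) and 4.84 ± 2.14 (SD, n = 41 wells), a fold of 2.78 that stayed between 2.54 and 3.06 when any 1 well was left out. As a graded trend the relation was weak. The Spearman correlation of Slc2a3 with the keratin sum was 0.238 over the 51 RNA-rich wells and -0.170 over the 41.

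Slc2a1 had a median of 3.84 in keratin-high and 1.41 in other wells, a fold of 2.25, and again 5 of the 9 lay above all 41. Its correlation with the keratin sum was 0.342 over the RNA-rich wells and 0.118 over the 41. In the 9 wells it ran from 0.920 in H07, the well of the highest keratin sum, to 5.99 in D08. Ldha went the other way. It ran from 4.48 to 8.25 in the 9 wells and from 4.20 to 16.6 with a median of 10.1 in the 41, so that none of the 9 reached the median of the others. Its fold was 0.669, just short of the 1.5-fold limit, 0.652 to 0.698 when any 1 keratin-high well was left out, 0.658 with the nuclear denominator, 0.719 at a keratin sum of at least 30 and 0.751 after division by spike-ins. Pkm had means of 9.34 and 13.0, a fold of 0.719. Gapdh differed by less than the spread between wells, at 43.6 ± 7.32 and 45.9 ± 13.4 (SD, n = 9 and 41 wells), and the summed level was 119 in either set.

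Of 28 members at a level of at least 0.1 in these wells, 5 were at least 1.5-fold higher in keratin-high wells and 4 lower, against 18.5% higher and 19.6% lower of 7318 genes, so the counts themselves were near the background. With the nuclear denominator Ldha joined the lower ones, 5 of 28 against 20.5% of genes. Beside both transporters, Slc16a3 was 1.88-fold and P4ha1 1.76-fold higher, the latter only with A06 included (1.44 without it). Pfkfb3 was 7.83-fold higher, and its 52 molecules came from 2 of the 9 wells (2.79-fold without D08). Lower were Pfkp (4.54-fold, 6 molecules, and a ratio of 0.145 in place of 0.220 without G10), Pdk1 (2.79-fold, 24 molecules), Bnip3 (2.05-fold, 31 molecules) and Pfkm (1.63-fold, 13 molecules, a call that ended when any 1 of 5 wells was left out).

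**Figure D5:**
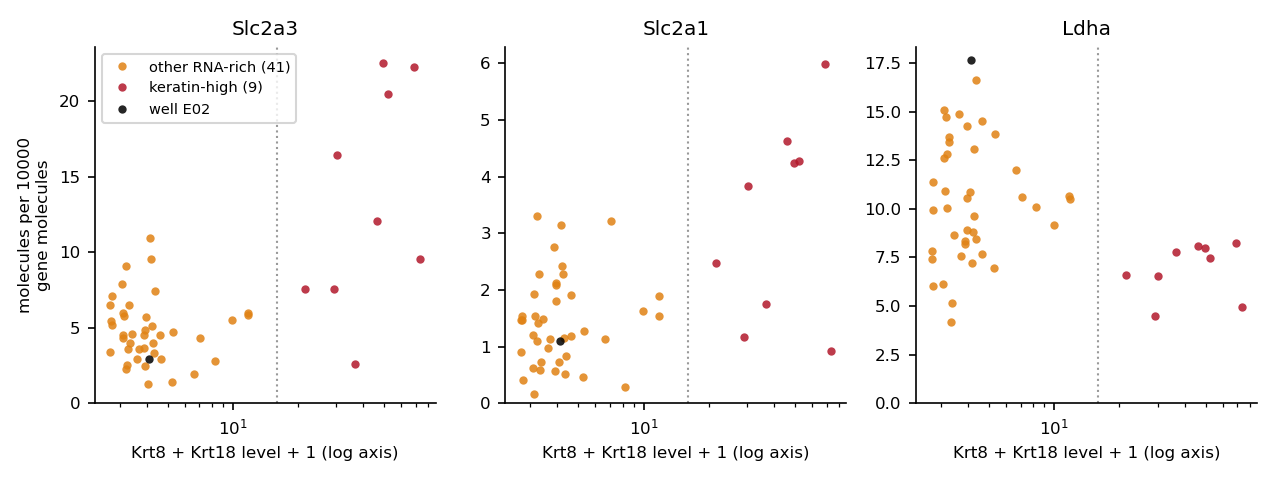
Levels of Slc2a3, Slc2a1 and Ldha (y axes, molecules per 10000 gene molecules) against the summed level of Krt8 and Krt18 plus 1 (x axis, log scale) in 41 other RNA-rich wells (orange), 9 keratin-high wells (red) and well E02 (black); the dotted line is the limit of 15. Slc2a3 and Slc2a1 reach their highest values and Ldha stays at or below 8.25 to the right of it.

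Among the 41 other RNA-rich wells, Ldha was low where the sum of ES cell markers was high. Its Spearman correlation with the summed level of the 13 ES cell markers was -0.585, and 5 of the 3148 genes with a mean of at least 5 molecules, Ldha among them, had a value as low. It was -0.566 with Zfp42 (Rex1) and also with Dppa5a, both markers of the naive pluripotent state. Both genes are among the 13, so these values restate part of the same sum. The other markers were not read singly. The 4 wells of lowest Ldha (G05, H04, A05 and C06, 4.20 to 6.13) had Zfp42 levels of 9.67 to 27.3. The 4 of highest Ldha (D01, E07, H06 and B09, 14.7 to 16.6) had 1.81 to 2.61. Over all 51 RNA-rich wells, with the keratin-high wells and E02, the correlation with the marker sum was -0.226, and over the 45 low-RNA wells it was 0.341. The pattern within the 41 wells was looked for after their values were seen. Over the 41 wells Slc2a3 and Gapdh had correlations of 0.168 and 0.113 with the same sum. With Dppa5a alone they were 0.161 and 0.113, and with Zfp42 alone 0.247 and -0.130. Negative values were not particular to Ldha. Among the 18 members with a mean of at least 5 molecules, Slc16a1 (-0.291) and Pdha1 (-0.268) came next for the sum. For Zfp42 the next were Ldhb (-0.454) and Tpi1 (-0.373). The highest value for both was that of Slc2a3.

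Other genes of the pathway and its branches were read from 9 lists, of which only the transport list holds members. In the pentose phosphate pathway, which draws glucose-6-phosphate for NADPH and ribose, 6 of 8 tested genes were at least 1.5-fold higher in RNA-rich wells and 0 lower, where 34.8% of all genes were higher and 11.2% lower, with G6pdx (2.17), Pgd (2.00) and Rpe (1.98) first and Taldo1 (1.82) and Prps1 (1.39) most abundant. All 5 genes listed under serine synthesis from 3-phosphoglycerate were higher, among them Phgdh (1.93), Psat1 (1.93) and Psph (1.90). The other listed genes, Shmt1 (1.88) and Shmt2 (1.63), act on serine and are not themselves enzymes of that synthesis. With the nuclear denominator 1 of the 8 and 0 of the 5 were higher, where 11.5% of all genes were.

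Of the tricarboxylic acid cycle, 14 of 22 genes were higher (34.8% of all genes) and 0 lower, led by Idh2 (2.77), Sdhc (2.31) and Idh3a (2.13), while Mdh2 (1.77) and Sdhb (1.18) had the highest levels. Of the pyruvate dehydrogenase complex and its regulators 5 of 6 were higher, led by the pyruvate carrier Mpc2 (2.45), then Pdhb (2.06) and Dlat (1.64), while Dld had 1.27. Of the same lists 4 of 22 and 2 of 6 were higher with the nuclear denominator, beside 11.5% of all genes. The median folds of these lists were 1.58 and 1.62, beside 1.58 for the 27 members and 1.28 for all genes.

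Genes of the hypoxia pathway gave smaller counts. Of 9 genes listed as core, 2 were higher, the elongin gene Tceb2 (2.08) and Ubqln1 (1.73), while Rbx1 had 1.40. Ubqln1 encodes a ubiquilin and is not itself a core gene of this pathway. Of 17 other target genes 7 were higher and 2 lower, with Hmox1 (2.21), Mif (2.02), Fam162a (1.91) and Higd1a (1.88) among the former. The lower ones were Mxi1 (0.495) and Bhlhe40 (0.631). These shares lie near the 34.8% and 11.2% of all genes. Of the 17, 2 were higher and 5 lower with the nuclear denominator, with a median of 0.955. Of the 9 genes listed as core, 1 was higher and 0 lower with it. Among all genes 11.5% were then higher and 22.8% lower. With all gene molecules as denominator the medians were 1.28 for each of these 2 lists and for all genes. Of glycogen and sugar-phosphate genes 2 of 6 were higher, Gys1 (1.64) and Gfpt1 (1.53), with Gpd2 (0.897) and Pgm3 (1.15) most abundant. Of other glycolysis isoforms and regulators 1 of 3 was, Adpgk (1.604), beside Pgam5 (1.07), and of glucose and lactate transport 2 of 5, the members Slc2a3 and Slc16a3. No tested gene of these 3 lists was past 1.5-fold with the nuclear denominator. Pdhb, Phgdh, Mif and Rbx1 had under 50% of molecules from unique reads and are uncertain.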

How the data were processed

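RNA molecules were counted in 96 wells of 1 chip. The authors deposited whole-number molecule counts per feature and well. Reads that matched several places are included and, per the file headers, placed at the exonic hit nearest a 5' end. The submitters' processing notes name Bowtie and mm10 (GRCm38), and versions are not given in the sources used here. Gene rows exclude 96 spike-ins and 1554 repeat types. Levels are molecules per 10000 gene molecules. No count model was fitted, because 1 culture gives no replicates: means of 45 low-RNA (at most 40000 gene molecules) and 51 RNA-rich wells (at least 50000) were compared for genes at a mean level of at least 0.1. Technical noise came from a gamma model (identity link) of the spike-ins' squared CV on the inverse mean, with slope 3.23 and intercept 0.00874 in RNA-rich wells. Correlations are Spearman's. Intervals and floors cover counting error only. The fold and noise calls were checked on simulated counts with known changes.

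The members, gene lists and limits were chosen with earlier results of these data known. Named genes are the 12 members of highest mean, each past 1.5-fold or above noise, the 5 highest and 3 lowest pairs, from each list the 2 highest means and up to 3 largest folds in each direction, and Pou5f1, Krt8, Krt18 and Col1a1; others were named after their values were seen. Alternatives changed the denominator, depth, wells, members and thresholds. Coordinates are from GENCODE M21 on GRCm38, promoters from RefSeq. Python 3.11.15, numpy 2.4.6, scipy 1.17.1, pandas 2.3.3, statsmodels 0.14.6 and matplotlib 3.10.9 were used.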

Additional observations from a re-analysis of the deposited data

How the results depend on the processing

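No paired analysis was possible because both library forms of a well share 1 table column and all wells are 1 culture. Of the alternatives to results that answer a comparison, 52 left the result within its limits and 25 moved it. With the nuclear denominator the ratio of summed levels was 1.36, 6 members were higher and 3 lower between classes (17 and 1 in the main analysis), and 10 pathway genes were higher and 5 lower (42 and 2). With spike-in division the ratio was 5.48. Then 27 members were higher and 0 lower, where 6863 of 7210 genes were higher and 22 lower. With this division 76 pathway genes were higher and 0 lower, and 13 members were above noise in RNA-rich wells (8). Median correlations were 0.253 in RNA-rich and 0.334 in low-RNA wells. Vegfa then turned to a fold of 1.59. Thinning to 8000 gene molecules, in a single random draw, gave 2 members lower, 0 above noise in RNA-rich wells and a median correlation of 0.177 in low-RNA wells. Folds were then 0.882 for Pdk3, 0.706 for Slc16a3 and 7.06 for P4ha1, each from few molecules. Without the keratin-high wells and E02, 5 members were above noise. Past 2-fold, 6 members were higher and 0 lower; at a mean level of at least 1, 11 and 0; with no minimum level, 3 were lower. At a noise ratio of 1.5, 15 members were above noise, and at 3, 2. Between keratin-high and other wells, 3 members were higher past 2-fold (5). The share of all genes was not computed for noise counts under any alternative, nor for fold counts with changed depth, wells or limits. Noise calls in low-RNA wells stayed at 0 under every alternative run. In the main analysis the median ratio of all genes there was 0.473 and 16 of 2695 genes passed the limit, so a count of 0 says little. The cause of the moves above was not tested, except that stricter limits admit fewer genes by construction. At a median of 22234 gene molecules, 5 of 7 hypoxia members (not Hif1a and Bnip3) gave no molecule in most low-RNA wells, and a low level and low depth cannot be told apart there. The added alternatives (Gm5506_loc2 with Eno1, and those for keratin-high wells) were chosen after seeing the data.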

Other observations

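Genes whose level was most like that of a member over the 51 RNA-rich wells were read from the 3148 genes with a mean of at least 5 molecules, chosen after the values were seen. Closest to Gapdh were Npm1, a nucleolar chaperone, at a Spearman correlation of 0.726, then Gm5506_loc2 at 0.688, the translation factor gene Eif5a at 0.663, Hmgb1 at 0.655 (4.48% of molecules from unique reads) and Ran at 0.634. Closest to Slc2a3 were the splicing factor gene Son at 0.56, the kinase gene Map4k4 at 0.547 and Midn at 0.53, all outside the pathway. These points share the culture and the denominator, and the values are given as a description.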
